A study of Mus musculus with 4 samples.

Results

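The data describe 9 genes that hold back inflammatory signalling in myeloid cells, either at the level of ubiquitin chains and kinases (Tnfaip3, Tnip1, Cyld, N4bp1 and Irak3) or at the level of messenger RNA (Zc3h12a, Zfp36, Zfp36l1 and Zfp36l2). They were taken by gene symbol from the 24706 genes measured in every library, and all 9 were found once. RNA-seq was done on 4 libraries that the labels call mouse myeloid cells, 2 of them wt and 2 cko. In the study the control mice are PD-1f/f, with LoxP sites placed in Pdcd1 by CRISPR, and are called wild-type in the methods, whereas the knockout mice are PD-1f/f; LysM-Cre. Both groups therefore carry the floxed allele where the PD-1f/f name holds, and only the cko group carries Cre. LysM-Cre is a knock-in at Lyz2 that expresses Cre in monocytes, macrophages and granulocytes, so that deletion is not confined to 1 myeloid cell type and the allele itself takes the place of a Lyz2 copy. The results of the study describe CD11b+ cells sorted from livers of postnatal day 3 pups, the methods describe RNA from livers of postnatal day 2 pups without naming a sort, and these accounts could not be reconciled from the labels. The labels do not say whether the libraries of a group came from separate animals, so that p-values measure only the spread between these libraries. For the cko libraries this may be technical, whereas the wt libraries differed in sex, as given later, and were not repeats of the same RNA.

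When a Toll-like receptor, the IL-1 receptor or the TNF receptor is engaged, IRAK and RIP kinases gather on scaffolds of ubiquitin chains, which recruit the kinases that activate NF-κB and MAP kinases. A20, the product of Tnfaip3, edits and caps these chains and is itself an NF-κB target, so that it works as a negative feedback, with ABIN1 (Tnip1) as its ubiquitin-binding partner and CYLD as a separate deubiquitinase. After transcription, TTP (Zfp36) and its relatives bind AU-rich elements of cytokine messages and hand them to the deadenylation machinery, and Regnase-1 (Zc3h12a) cuts stem-loops in many of the same messages.

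The start site of Tnfaip3 carries letters that NF-κB recognises, and its promoter is shown beside that of its partner Tnip1 and that of N4bp1, the only other gene of the 9 that passed a threshold below. RefSeq promoters (GRCm38.p6), from 250 bases before to 50 after the start, were matched by symbol for 8 of the 9 genes. The Tnfaip3 promoter lies at chr10:19015361-19015660, that of Tnip1 at chr11:54962891-54963190 and that of N4bp1 at chr8:86885209-86885508, all on the minus strand, and capitals mark matches to the κB consensus on either strand.
Tnfaip3: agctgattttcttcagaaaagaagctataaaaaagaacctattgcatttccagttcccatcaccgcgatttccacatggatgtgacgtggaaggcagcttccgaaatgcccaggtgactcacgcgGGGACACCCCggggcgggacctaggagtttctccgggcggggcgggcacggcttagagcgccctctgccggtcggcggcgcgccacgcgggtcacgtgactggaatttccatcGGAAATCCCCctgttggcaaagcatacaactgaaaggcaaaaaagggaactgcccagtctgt
Tnip1: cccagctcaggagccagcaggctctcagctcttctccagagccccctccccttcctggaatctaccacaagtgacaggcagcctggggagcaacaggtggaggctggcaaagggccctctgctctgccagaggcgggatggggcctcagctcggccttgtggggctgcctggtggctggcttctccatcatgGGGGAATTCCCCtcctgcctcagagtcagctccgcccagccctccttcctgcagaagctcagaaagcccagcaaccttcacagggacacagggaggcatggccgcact
N4bp1: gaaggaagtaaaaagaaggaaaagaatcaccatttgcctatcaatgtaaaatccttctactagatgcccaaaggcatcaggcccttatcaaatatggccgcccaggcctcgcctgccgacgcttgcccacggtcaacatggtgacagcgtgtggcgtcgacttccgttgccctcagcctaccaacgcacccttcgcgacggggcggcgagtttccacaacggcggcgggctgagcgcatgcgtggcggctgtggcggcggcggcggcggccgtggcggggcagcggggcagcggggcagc
In Tnfaip3 the κB matches are GGGACACCCC at position -125 from the start site and GGAAATCCCC at position -12, and a match to the AP-1 motif TGANTCA stood at position -136, clear of both. In Tnip1 the matches overlap in a single palindromic stretch, GGGGAATTCCCC at position -58. Of all 32851 promoters of this length, 4.51% held a κB match and 7.81% an AP-1 match. Among the other genes, Cyld had GGAAAGTCCC at position -155, and no κB match was found in the windows of N4bp1, Irak3, Zc3h12a, Zfp36 and Zfp36l1 or in a further Tnfaip3 promoter at chr10:19011914-19012213. The Zfp36 window held a CArG box, the motif of serum response factor, at position -58 (1.63% of promoters) and the STAT motif TTCNNNGAA at position -17 (8.3%), which do not overlap.

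The deposited values are FPKM (reads scaled to the length of the gene and the depth of the library), and they were whole multiples of what 1 read is worth. This gave 22212406 and 18822629 counted reads for wt replicates 1 and 2 and 18742154 and 17691505 for cko replicates 1 and 2. Pdcd1, the targeted gene, was at 28.5 and 34.7 FPKM in wt and 17.1 and 21.4 in cko, and Lyz2 at 31306 and 32147 in wt and 10422 and 8127 in cko. Both genes were thus lower in both cko libraries, and reads of Pdcd1 remained in cko. A value over the whole gene does not measure excision of the exon between the LoxP sites. The study itself reported less PD-1 by qPCR and Western blot. Itgam, which encodes CD11b, lay between 48.5 and 54.3 FPKM in all 4 libraries. Cell type markers moved in both directions. The summed FPKM of 10 late neutrophil markers was 136088 to 160222 in wt and 90551 to 108936 in cko, that of 9 erythroid markers 2294 to 3384 and 1399 to 1477, and that of 8 hepatocyte markers 84.7 to 143 and 59.6 to 71.7. The 5 B cell markers summed to 52.5 to 66.5 FPKM in wt and 33.3 to 42.9 in cko, while the 5 early neutrophil markers were higher in cko (1663 to 2018, against 1256 to 1338). The 10 macrophage markers overlapped, at 295 to 411 in wt and 301 and 516 in cko replicates 1 and 2. None of these markers was at 0 in every library. Most of the late neutrophil sum was Ngp, S100a9 and S100a8. Of the 10 late neutrophil markers, 9 had a log2 fold change of cko against wt below 0, and Cxcr2 alone was above 0. The 7 monocyte markers summed to 486 to 509 FPKM in wt and to 499 and 631 in cko replicates 1 and 2. Most of this sum was Ly6c2, at 343 and 360 FPKM in wt and 333 and 315 in cko. The log2 fold change of cko against wt was above 0 in 6 of the 7 (60.4% over all genes tested). Their median departure from the wt mean in log2(FPKM + 1) was 0.11 in cko replicate 1 and 0.93 in cko replicate 2. The 11 immediate early genes, which respond to handling of cells, summed to 2841 to 2994 in wt and 3661 to 4055 in cko. Most of this sum was Fos, Ier2 and Junb. Both cko libraries lay above both wt libraries in 6 of the 11 and below them in 1, Fosb (33.6% and 18.0% over all genes tested). Wt replicate 2 was the only library with over 1 read of the Y-linked Ddx3y (2440 reads), and held 4 reads of Xist, against 1956 to 2530 in the other libraries. The part of cell makeup, handling and sex in the differences given here was not tested, and in bulk RNA a change in the number of cells of a type and a change in RNA per cell cannot be told apart.

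Of the 9 genes, Tnfaip3 and N4bp1 had more transcript in the cko libraries by the threshold of the study's results (|log2FC| above 1 with an unadjusted p under 0.01), and none was lower by it. Tnfaip3 differed 7.15-fold between the group means and N4bp1 2.65-fold. The other 7 genes, among them the abundant Zfp36, lay within |log2FC| of 0.64. Over the 10779 genes tested with limma on log2(FPKM + 1), 2.29% passed this threshold, 1.88% higher and 0.408% lower in cko, against 2 of the 9 genes. None of the 9 passed the threshold of the methods (adjusted p under 0.05 by Benjamini-Hochberg, with a |log2FC| of 1 or more), and neither did any of the genes tested (0.0%), although 16.4% of them had an unadjusted limma p under 0.05, 11.4% higher and 4.95% lower. The 9 genes included 2 with such a p, again Tnfaip3 and N4bp1. An exact two-sided permutation test on 1 gene could not reach p < 0.05 with 2 libraries against 2.

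**Figure D1:**
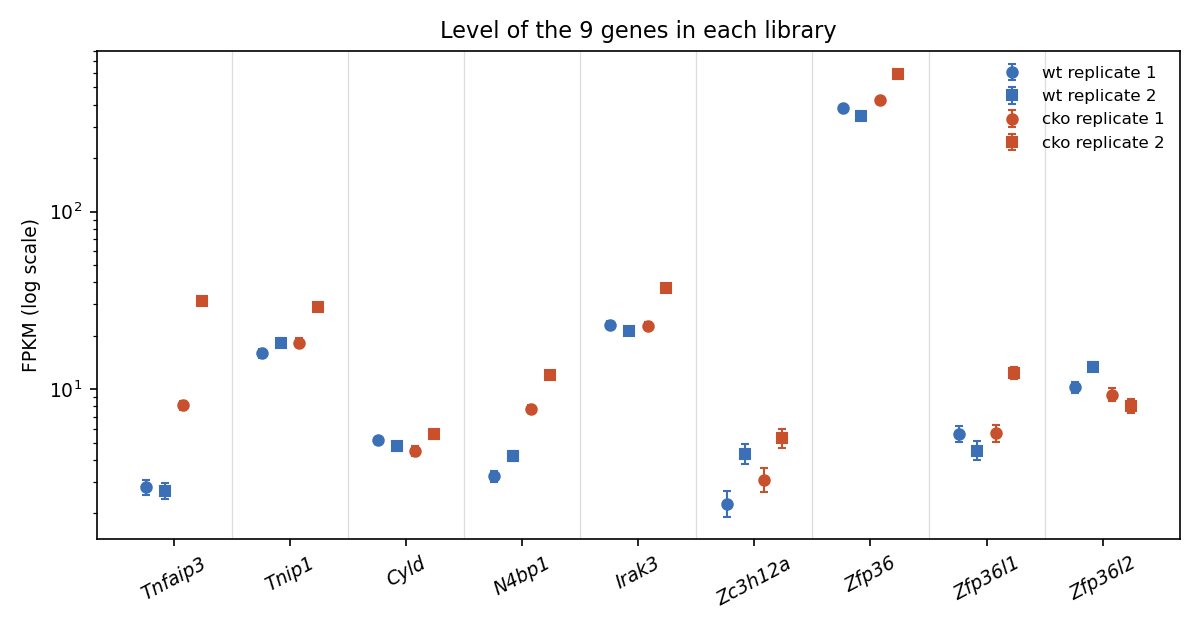
FPKM of the 9 genes (log axis) in the 2 wt (blue) and 2 cko (red) libraries, with circles for replicate 1 and squares for replicate 2; bars are 95% Clopper-Pearson intervals of the recovered reads and cover counting error only. Tnfaip3 runs from 2.69 to 31.2 FPKM, Zfp36 stays between 344 and 596 FPKM, and cko replicate 2 is the highest library for every gene except Zfp36l2.

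Tnfaip3 (ENSMUSG00000019850, chr10:19000910-19015657 on the minus strand, GRCm38) encodes A20. Its level was 2.80 FPKM in wt replicate 1 and 2.69 in wt replicate 2, and 8.10 and 31.2 in cko replicates 1 and 2. The wt libraries were alike and both cko libraries lay above them, but the cko libraries differed 3.85-fold from each other. These values rest on 450, 366, 1097 and 3987 reads, whose 95% Clopper-Pearson intervals were 2.55 to 3.08, 2.42 to 2.98, 7.63 to 8.59 and 30.2 to 32.2 FPKM. The gap between the cko libraries was thus far wider than counting error. On the group means the level was 2.75 ± 0.0797 FPKM in wt and 19.6 ± 16.3 in cko (SD, n = 2 each), and the log2 fold change was 2.19 ± 0.57 (SE, limma adjusted p = 0.214). This was the 32nd highest fold change of the 10779 genes, and relative to the genes tested Tnfaip3 moved from percentile 31.8 and 29.5 of level in wt to 59.1 and 85.4 in cko. Leaving out cko replicate 2 gave a log2 fold change of 1.28 and leaving out cko replicate 1 gave 3.10. The threshold was lost without wt replicate 1 (2.21) or wt replicate 2 (2.17), where the fold was as large but the p was not under 0.01, and over 15 alternatives Tnfaip3 passed in 9, with adjusted p between 0.0913 and 0.615.

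Tnip1 (ENSMUSG00000020400, chr11:54910785-54962917, minus strand) encodes ABIN1, which brings A20 to ubiquitin chains. Its FPKM was 15.9 and 18.3 in wt and 18.3 and 28.9 in cko. Cko replicate 1 was level with the higher wt library, above it by less than the last digit printed, and cko replicate 2 stood apart. The log2 fold change was 0.41 ± 0.24 (SE, limma adjusted p = 0.434). Per length, wt libraries held 5.66 and 6.80 times as much Tnip1 as Tnfaip3, cko replicate 1 2.27 times and cko replicate 2 0.926 times. In cko replicate 2 the FPKM of A20 and of its partner were thus close. The length is that of all annotated exons of a gene (7226 bases for Tnfaip3, 3539 for Tnip1). Ratios between genes therefore depend on the annotation and do not give numbers of transcripts.

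Cyld (ENSMUSG00000036712, chr8:88697028-88751945, plus strand) encodes a deubiquitinase that trims linear and other non-degradative ubiquitin chains. It lay at 5.15 and 4.78 FPKM in wt and 4.50 and 5.59 in cko. The cko libraries lay on either side of the wt libraries, and the log2 fold change was 0.013 ± 0.19 (SE, limma adjusted p = 0.98), with a sign that turned negative under median-of-ratios scaling (-0.077) and quantile normalisation (-0.1). Tnfaip3 stood at 0.544 and 0.563 times the level of Cyld in wt, and at 1.8 and 5.58 times in cko.

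N4bp1 (ENSMUSG00000031652, chr8:86808160-86885258, minus strand) encodes a ubiquitin-binding protein that limits NF-κB activation downstream of Toll-like receptors and is cleaved by caspase-8. Its level was 3.24 and 4.23 FPKM in wt and 7.73 and 12.1 in cko, from 876, 971, 1767 and 2600 reads. Both cko libraries were above both wt libraries, and the gap between the groups was wider than that within wt. Beside the gap within cko, it was narrower in FPKM and wider in log2(FPKM + 1). The log2 fold change was 1.18 ± 0.25 (SE, limma adjusted p = 0.21), the 277th highest of 10779. The 2 cko libraries stood 0.89 and 1.47 above the wt mean on this log2 scale, closer to each other than for Tnfaip3. N4bp1 missed the threshold without wt replicate 1 (1.03), wt replicate 2 (1.33) or cko replicate 2 (0.89). It passed in 12 of 15 alternatives, with adjusted p between 0.118 and 0.615.

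Irak3 (ENSMUSG00000020227, chr10:120141648-120202130, minus strand) encodes IRAK-M, an IRAK family member found mainly in monocytes and macrophages that dampens signalling through MyD88. It was the second most abundant of the 9 genes per length in every library, at 23.1 and 21.3 FPKM in wt and 22.8 and 36.9 in cko. Cko replicate 1 lay between the wt libraries and only cko replicate 2 lay above them. The log2 fold change was 0.37 ± 0.25 (SE, limma adjusted p = 0.474), and 0.039 without cko replicate 2. Irak3 shares 192 exonic bases with Tmbim4 on the other strand (34.1 to 47.2 FPKM), and whether reads were counted by strand is not stated.

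Zc3h12a (ENSMUSG00000042677, chr4:125118423-125127840, minus strand) encodes Regnase-1, an endonuclease that degrades Il6, Il12b and other inflammatory messages and is itself destroyed after IL-1 or Toll-like receptor signals. It had the fewest reads of the 9 genes (145, 235, 167 and 271), at 2.27 and 4.33 FPKM in wt and 3.09 and 5.32 in cko. The wt libraries differed 1.91-fold from each other, which was more than the difference between the group means (1.27-fold). The log2 fold change was 0.28 ± 0.33 (SE, limma adjusted p = 0.692), and it turned negative without wt replicate 1 (-0.069) or cko replicate 2 (-0.028).

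**Figure D2:**
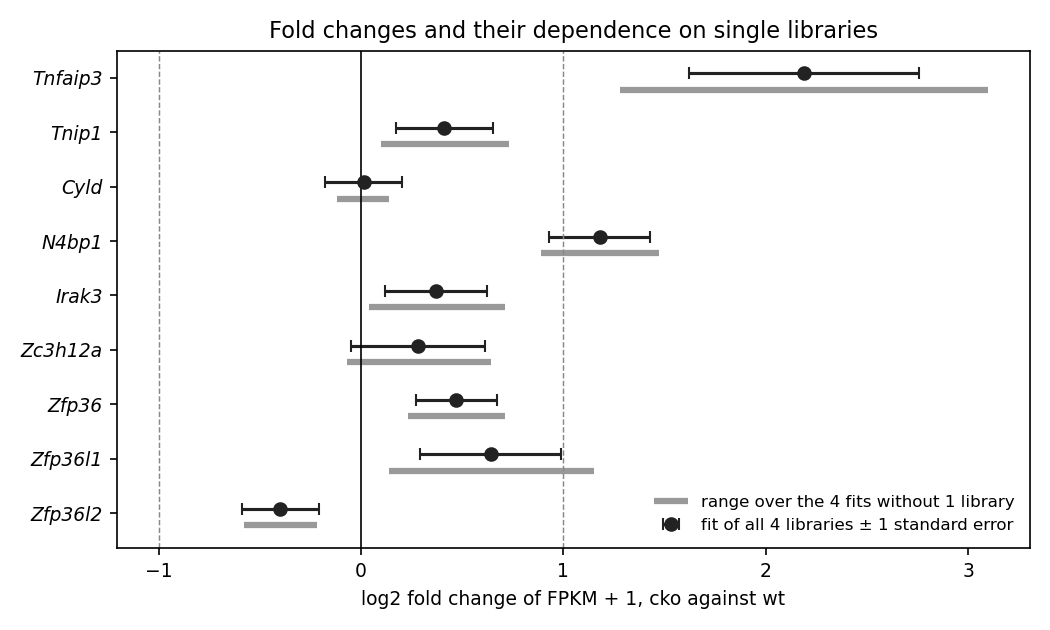
Log2 fold change of FPKM + 1, cko against wt, for the 9 genes: points with bars are the limma fit of all 4 libraries ± 1 SE, grey bars the range when each library is left out in turn, and dashed lines a log2 fold change of 1 in either direction. Tnfaip3 (2.19) and N4bp1 (1.18) lie beyond the line on all 4 libraries, while the ranges of Cyld and Zc3h12a cross 0.

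Zfp36 (ENSMUSG00000044786, chr7:28376784-28380253, minus strand) encodes tristetraprolin, which binds AU-rich elements and recruits the CCR4-NOT deadenylase. It was the most abundant of the 9 genes in every library, at 384 and 344 FPKM in wt and 426 and 596 in cko, and was above more than 99% of the genes tested. Both cko libraries were higher than both wt libraries, by little for cko replicate 1. The group means were 364 ± 28.5 and 511 ± 120 FPKM (SD, n = 2 each), a ratio of 1.40, and the log2 fold change was 0.47 ± 0.20 (SE, limma adjusted p = 0.319). Counting error was small here, since the values rest on 22444 to 36579 reads.

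Zfp36l1 (ENSMUSG00000021127, chr12:80107754-80113013, minus strand), a relative with the same tandem zinc fingers that also acts in lymphocyte and progenitor development, was at 5.60 and 4.51 FPKM in wt and 5.64 and 12.3 in cko. Cko replicate 1 was level with wt replicate 1, and the difference lay in cko replicate 2. The log2 fold change was 0.64 ± 0.35 (SE, limma adjusted p = 0.409), which ran from 0.14 without cko replicate 2 to 1.15 without cko replicate 1, where it passed the threshold. A long noncoding RNA on the other strand, Gm26669, shares 1672 exonic bases with Zfp36l1, but had 2 to 7 reads in any library.

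Zfp36l2 (ENSMUSG00000045817, chr17:84183931-84187947, minus strand), the relative known for its need in haematopoietic stem cells, was the only one of the 9 genes with both cko libraries below both wt libraries. Its level was 10.3 and 13.4 FPKM in wt and 9.31 and 8.05 in cko. The log2 fold change was -0.40 ± 0.19 (SE, limma adjusted p = 0.363), and negative in all 15 alternatives. Within the family, Zfp36 gave 95.0% to 96.7% of the summed FPKM in every library, and the ratio of Zfp36l1 to Zfp36l2 was 0.545 and 0.336 in wt and 0.606 and 1.53 in cko. The lesser family members thus changed places in cko replicate 2 alone.

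Transcripts of the 3 Zfp36 genes hold the element that tristetraprolin recognises, which is shown because tristetraprolin is known to bind its own message. The element is described for this family without being particular to it. The nonamer TTATTTATT occurred in 1 copy in the 3′ UTR of Zfp36, Zfp36l1 and Zfp36l2 (GENCODE M21 transcripts), against 6.97% of 21153 genes with at least 1 copy. The windows of 30 bases lie at chr7:28376948-28376977, chr12:80108164-80108193 and chr17:84184911-84184940, all on the minus strand of GRCm38 and within the 3′ UTR exon, with the nonamer in capitals.
Zfp36: tgacgactTTATTTATTgtattaagatttt
Zfp36l1: ctgttggaTTATTTATTttagaaattctcc
Zfp36l2: tatttaacTTATTTATTatcttgtgaaaag
The shorter pentamer ATTTA, which the nonamer contains, was found 9 times in Zfp36l1, 5 times in Zfp36l2, 3 times in Zfp36, in Zc3h12a and in N4bp1, 12 times in the long 3′ UTR of Cyld (4932 bases), once in Irak3 and not in Tnip1, and 61.7% of all genes had at least 1. The 3 genes had no common direction, since the fold changes of Zfp36 and Zfp36l1 were above 0 and that of Zfp36l2 below 0, none of them past the threshold.

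**Figure D3:**
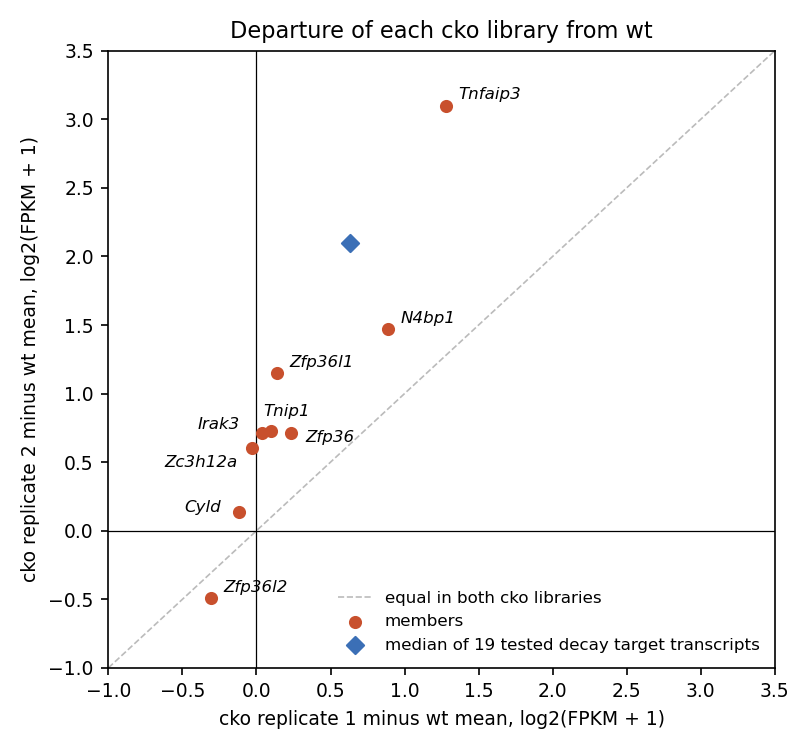
Departure of cko replicate 1 (horizontal axis) and cko replicate 2 (vertical axis) from the wt mean, in log2(FPKM + 1), for the 9 genes (red circles) and for the median of 19 tested decay target transcripts (blue diamond); the dashed line marks equal departures. Every gene except Zfp36l2 lies above the line, with Tnfaip3 at 1.28 and 3.10 and N4bp1 at 0.89 and 1.47.

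Across the 9 genes the log2 fold change was above 0 in 8 and below 0 in 1, with a median of 0.41, beside 60.4% above 0 and a median of 0.092 over all genes tested. Cyld left the positive group under the scalings named above. Both cko libraries lay above both wt libraries in 5 genes (Tnfaip3, Tnip1, N4bp1, Zfp36 and Zfp36l1) and below them in 1, where 33.6% and 18.0% of all genes tested did so, 51.6% in either direction. For Tnip1 and Zfp36l1 this order hung on a margin smaller than counting error. By role, the 5 ubiquitin and kinase brakes had a median of 0.41 with 2 past the threshold, and the 4 decay factors 0.38 with none. The medians of the departures from the wt mean were 0.1 in cko replicate 1 and 0.71 in cko replicate 2, and 8 of the 9 genes were higher in cko replicate 2 than in cko replicate 1. The order of levels per length was similar in all libraries at the top, with Zfp36 first and Irak3 second. In wt it went on with Tnip1 and Zfp36l2, then Zfp36l1 and Cyld, whose libraries overlapped, and then N4bp1, Zc3h12a and Tnfaip3. N4bp1 lay above Tnfaip3 in both wt libraries. Zc3h12a lay below both of these genes in wt replicate 1 and above both in wt replicate 2. Tnfaip3 ranked 8 and 9 among the 9 genes in wt, 5 in cko replicate 1 and 3 in cko replicate 2.

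The gene ontology terms in the files link the genes as their roles do. Zc3h12a and the 3 Zfp36 genes carry the term for 3′ UTR-mediated destabilisation of mRNA, which 13 of 19686 annotated genes have. Cyld, Irak3, Tnfaip3 and Zc3h12a carry the term for negative regulation of NF-κB transcription factor activity, which 72 genes have.

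Partners of A20 and further ubiquitin brakes were not past the threshold in either direction (0 of 15 tested, of 16 listed), with 3 higher and 1 lower at an unadjusted limma p under 0.05 (11.4% and 4.95% of all genes) and a median log2 fold change of 0.22. Both cko libraries were above wt in 7 and below in 1, beside 33.6% and 18.0% of all genes. The median was 0.1 without wt replicate 1, 0.13 without cko replicate 2, and 0.11 and 0.13 under median-of-ratios scaling and quantile normalisation. It was 0.42 with erythroid and hepatocyte genes removed, a setting that also scaled all libraries to the same summed FPKM. Tnfaip8l2, a negative regulator of Toll-like receptor signalling also called TIPE2, was at 168 and 191 FPKM in wt and 140 and 119 in cko (log2 fold change -0.47 ± 0.16, SE, limma adjusted p = 0.254). Trim30a, which promotes degradation of TAB2 and TAB3, was at 32.1 and 30.0 FPKM in wt and 42.4 and 58.6 in cko (0.67 ± 0.19, adjusted p = 0.23 in limma). Tnfaip8l2 thus stood on the opposite side of wt from Tnfaip3. Tnip2 was at 7.68 and 6.17 FPKM in wt and 11.9 and 21.4 in cko (1.11 ± 0.29, SE, limma adjusted p = 0.216). With all 4 libraries it passed at a pseudocount of 0.1, at a minimum mean of 5 FPKM and by voom. It also passed with erythroid and hepatocyte genes removed and with a block of crossed replicate numbers, and in no other setting of all 4 libraries.

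Of the ubiquitin and kinase steps on which A20 and CYLD act, such as TRAF and RIP proteins, the linear ubiquitin ligase and the IKK complex, 0 of 18 tested (20 listed) passed. At an unadjusted limma p under 0.05 there were 5 higher and none lower (11.4% and 4.95% over all genes). Both cko libraries were above wt in 14 and below in 1 (33.6% and 18.0% over all genes), and the median log2 fold change was 0.39. Ripk2 passed the filter through the cko libraries, and without it 13 of 17 lay above wt, with a median of 0.36. The median was 0.60 without cko replicate 1 and 0.61 with erythroid and hepatocyte genes removed. Birc3, which encodes the ubiquitin ligase cIAP2, was at 20.8 and 18.4 FPKM in wt and 32.0 and 71.9 in cko (1.25 ± 0.37, SE, limma adjusted p = 0.235). Sharpin, a subunit of the linear ubiquitin ligase, was at 27.3 and 29.4 FPKM in wt and 32.9 and 30.6 in cko (0.16 ± 0.14, SE). Birc3 was thus spread between the cko libraries in the manner of Tnfaip3 and Sharpin was not. Birc3 passed by voom, with a block of crossed replicate numbers and with erythroid and hepatocyte genes removed. It passed in no other setting of all 4 libraries.

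In the IRAK family and the brakes on the IL-1 and Toll-like receptors, 0 of 9 tested (12 listed) passed, with 3 higher at an unadjusted limma p under 0.05 (11.4% over all genes) and a median log2 fold change of 0.60. That median is the value of Cd180, which passed the filter through the cko libraries, and without Cd180 it was 0.65. It was 1.1 without cko replicate 1 and 0.29 without cko replicate 2. Myd88, the adaptor on which IRAK-M acts, was at 81.0 and 83.1 FPKM in wt and 125 and 206 in cko (0.96 ± 0.25, SE, limma adjusted p = 0.214), just under the fold needed. Il1r2, the decoy receptor for IL-1, was at 42.2 and 34.1 FPKM in wt and 80.1 and 228 in cko (1.81 ± 0.48, SE, limma adjusted p = 0.214), with an unadjusted p just over that needed. Both genes were higher in both cko libraries, where Irak3 was not. Il1r2 passed at a pseudocount of 0.1, at a minimum mean of 5 FPKM, under quantile normalisation, by voom and with a block of crossed replicate numbers. With erythroid and hepatocyte genes removed, Il1r2 and Myd88 passed. No gene of this list passed in the other settings of all 4 libraries.

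Other regulators of mRNA decay, which act on AU-rich elements or stem-loops, had 0 of 12 tested (16 listed) past the threshold, 4 higher at an unadjusted limma p under 0.05 (11.4% over all genes) and a median log2 fold change of 0.31. The median was 0.20 without cko replicate 1, 0.16 with no filter, 0.19 under quantile normalisation, and 0.58 and 0.59 with a minimum mean of 5 FPKM and with erythroid and hepatocyte genes removed. Dusp1, a phosphatase that switches off p38 and so favours decay by tristetraprolin, was at 239 and 177 FPKM in wt and 236 and 468 in cko (0.69 ± 0.35, SE, adjusted p = 0.374 in limma). Mapkapk2, the p38-activated kinase that phosphorylates and inactivates tristetraprolin, was at 27.8 and 30.8 FPKM in wt and 47.9 and 70.4 in cko (0.97 ± 0.22, SE, limma adjusted p = 0.21). Mapkapk2 was higher in both cko libraries and Dusp1 in 1 of them. Arid5a and Mapkapk2 passed with erythroid and hepatocyte genes removed, and Arid5a and Zc3h12c by voom. No gene of this list passed in the other settings of all 4 libraries.

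The deadenylation, decapping and exosome genes that carry out the decay were close to the background, with a median log2 fold change of 0.11. It was 0.02 under median-of-ratios scaling, -0.013 under quantile normalisation and 0.28 with erythroid and hepatocyte genes removed. Of 30 tested (32 listed), 1 was past the threshold, where 2.29% of all genes were. That gene was Ddx6, a helicase that links deadenylation to decapping, at 11.7 and 14.6 FPKM in wt and 25.7 and 34.3 in cko (1.12 ± 0.21, SE, limma adjusted p = 0.199). It did not pass without wt replicate 1 or cko replicate 2. Cnot8, a catalytic subunit of CCR4-NOT, was at 44.1 and 52.3 FPKM in wt and 50.4 and 49.7 in cko, and Exosc3, an exosome subunit, at 25.7 and 25.4 in wt and 26.2 and 33.3 in cko. The log2 fold changes of these subunits were 0.058 ± 0.15 and 0.20 ± 0.17 (SE).

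**Figure D4:**
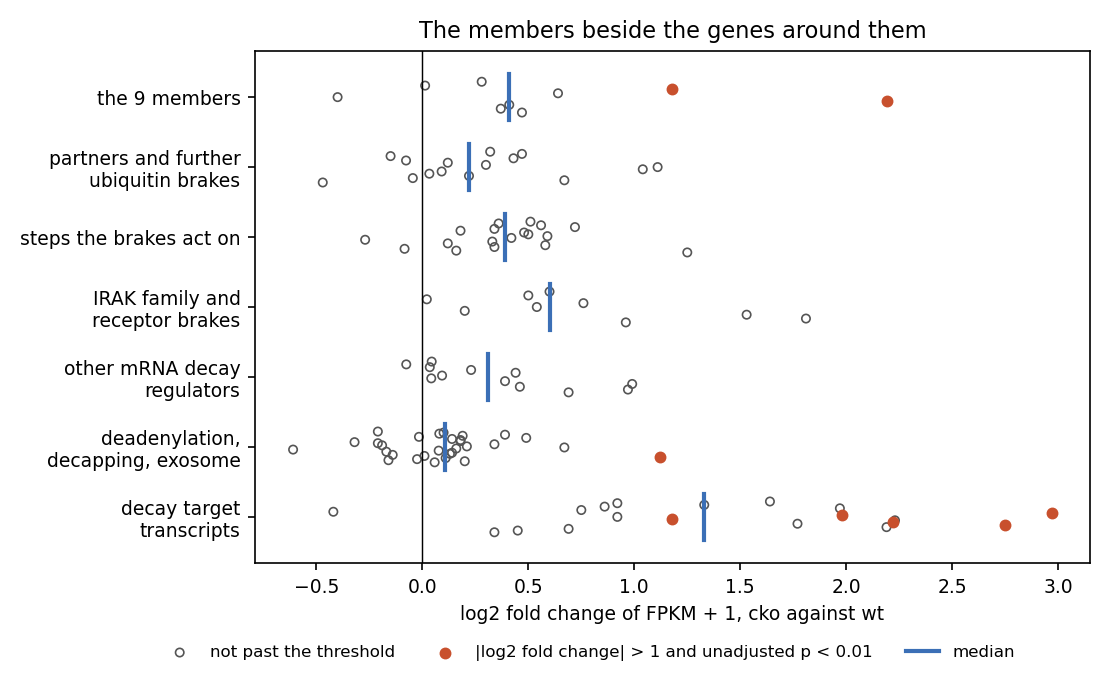
Log2 fold change of FPKM + 1, cko against wt, of each tested gene in the 9 genes and in 6 related lists; filled red points passed |log2FC| above 1 with an unadjusted p under 0.01 and blue bars are medians. The median is 0.41 for the 9 genes, 0.11 for the decay machinery and 1.33 for the decay target transcripts.

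Transcripts known to be destroyed through AU-rich elements or by Regnase-1 had the highest median of these lists, 1.33 over the 19 tested of 24, and 5 of the 19 passed the threshold higher in cko and none lower, beside 1.88% and 0.408% of all genes. Il10, Il23a, Lif, Il12b and Csf2 were under the filter of a mean of 1 FPKM, and Cxcl1 passed it through the cko libraries, as its wt mean was below 1 (median 1.25 over the other 18, with the same 5 past the threshold). Cxcl10, an interferon-induced chemokine, was at 5.98 and 2.03 FPKM in wt and 16.3 and 73.8 in cko (log2 fold change 2.97 ± 0.74, SE, limma adjusted p = 0.214). The neutrophil chemokine Cxcl2 was at 38.0 and 27.3 FPKM in wt and 110 and 449 in cko (2.75 ± 0.63, SE). Both chemokines were several-fold higher in cko replicate 2 than in cko replicate 1, as Tnfaip3 was. Ccl3 had a log2 fold change of 2.22 ± 0.57, Ccl2 of 1.98 ± 0.48 and Tnf, the founding target of tristetraprolin, of 1.18 ± 0.22 (SE, from 52.1 and 43.9 FPKM in wt and 89.8 and 133 in cko). The 2 most abundant targets, Fos at 1028 to 1304 FPKM in wt and 1447 to 1487 in cko, and Lcn2 at 813 to 883 and 1035 to 1301, did not pass (0.34 ± 0.17 and 0.45 ± 0.17, SE). The median departure from wt was 0.63 in cko replicate 1 and 2.1 in cko replicate 2. The median log2 fold change was 2.1 without cko replicate 1 and 0.63 without cko replicate 2. It was 1.79 and 1.2 without wt replicates 1 and 2. The calls of these targets did not all hold when 1 library was left out. With all 4 libraries, the number of targets past the threshold was 1 of 24 with no filter and 2 of 19 with eBayes without a trend. It was 3 of 19 with median-of-ratios scaling or with the replicate block, and 8 of 22 by voom. With erythroid and hepatocyte genes removed it was 8 of 19, and with a block of crossed replicate numbers 10 of 19. Over all genes tested, 173 of 24706 passed with no filter, 222 of 10779 with no trend, and 211 and 258 with that scaling and that block. Voom gave 289 of 14048, the removal of those genes 367 of 10786, and the crossed block 363 of 10779. The nonamer was present in 10 and the pentamer in 23 of the 24 targets. The median of these targets and Zfp36, the most abundant factor that acts on them, were both higher in cko replicate 2 than in cko replicate 1.

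The genes whose pattern over the 4 libraries was nearest to that of Tnfaip3 were Slc2a6, Sod2 and Ccl2, by Euclidean distance of log2(FPKM + 1) from each gene's own mean (0.293, 0.317 and 0.329 among 5812 genes whose mean was 5 FPKM or more). Slc2a6 encodes a sugar transporter of lysosomes and Sod2 the mitochondrial superoxide dismutase. Sod2 was at 14.3 and 11.9 FPKM in wt and 31.7 and 94.4 in cko, and Slc2a6 at 7.08 and 5.92 in wt and 16.5 and 50.5 in cko. Each was higher in cko replicate 1 than in wt and higher again in cko replicate 2, as Tnfaip3 was. For Zfp36 the nearest were Gm10093, Cxcr2 and Set (0.0405, 0.0491 and 0.0586). Cxcr2, the chemokine receptor of neutrophils, was at 199 and 179 FPKM in wt and 230 and 317 in cko. The other 9 late neutrophil markers had log2 fold changes below 0. With 4 libraries these distances describe the libraries and carry no test.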

How the data were processed

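RNA-seq was analysed for the 2 wt and 2 cko libraries, grouped by their labels. The authors deposited 1 file per library with FPKM values for 24706 genes. The submitters' processing notes name Bowtie2 2.2.3, TopHat2 2.0.12 and HTSeq 0.6.0 without settings, and name mm9, whereas the positions match GENCODE M21 (GRCm38) exactly for 92.61% of genes. The annotation and the strand setting of the counting are not given in the sources used here. No scaling between libraries had been applied to the values. Library totals were recovered from single-exon genes (99.94% to 99.97% of 3090 to 3920 values per library whole within 0.02 reads), and reads were recovered for 97.42% of the genes, for 91.29% from annotated exon lengths, the 9 genes described here among these. At a gene length of 1 kb, 1 read adds 0.045 to 0.0565 FPKM. The 95% Clopper-Pearson intervals take in counting error alone.

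The groups were compared in R 4.3.3 with limma 3.58.1, using lmFit and trended eBayes on log2(FPKM + 1), with no covariate. The fit took in all 10779 genes whose mean was 1 FPKM or more, and p-values were adjusted over all of them (Benjamini-Hochberg). Fold changes on this scale are understated for genes with low FPKM. Called genes passed |log2FC| above 1 with an unadjusted p under 0.01, the threshold of the study's results, and the threshold of the methods (adjusted p under 0.05, |log2FC| of 1 or more) was used beside it. The fit was run on simulated reads with a common dispersion and large set fold changes, as a check of the code alone. That setting did not cover a spread such as that of Tnfaip3 between the cko libraries. The 9 genes and the related lists were chosen with earlier results of these data known, so that lists are described by counts and medians. Of each list the text names genes past the threshold, at most 5 by size, and the 2 tested genes with the highest mean FPKM. Genes that passed without 1 library or only in another setting were named after their values were seen. Rqcd1 and Exosc6 of the decay machinery were not matched. Motifs were searched on both strands of RefSeq promoters, and AU-rich elements in the 3′ UTRs of GENCODE M21. The 3′ UTR elements of 1 gene are not reported here. Alternatives were other pseudocounts (0.1 and 0.01), filters, scalings, eBayes with no trend, voom on the recovered reads and the omission of each library. Further ones were a block for the replicate number, a block of crossed replicate numbers, and erythroid and hepatocyte genes taken out. The last also scaled the libraries to equal summed FPKM. Before it, that sum was 491982.9 and 457126.9 in wt replicates 1 and 2 and 412777.5 and 403900.3 in cko. Erythroid genes held 1399 to 3384 FPKM of it and hepatocyte genes 59.6 to 143. The removal and the scaling were not tested apart. Tables were made with Python 3.11.15.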

Additional observations from a re-analysis of the deposited data

How the results depend on the processing

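Over 15 alternatives, 134 log2 fold changes of the 9 genes were computed (Zc3h12a had no value at a mean of at least 5 FPKM). Of these, 118 kept their direction and their side of the threshold, which for most genes meant staying short of it. Of the called genes, Tnfaip3 lost the threshold in 6 of 15 alternatives and N4bp1 in 3 of 15. The number of the 9 genes past |log2FC| above 1 with an unadjusted limma p under 0.01 was 2, and 1 (N4bp1) with no filter, median-of-ratios scaling, quantile normalisation or eBayes without a trend. With 1 library left out it ran from 0 to 3, being 0 without either wt library, 1 without cko replicate 2 (Tnfaip3) and 3 without cko replicate 1 (Zfp36l1 added). The lone library of a group is then assumed to vary like the other group. With no filter, median-of-ratios scaling, quantile normalisation or eBayes without a trend, Tnfaip3 had a log2 fold change of 2.08 to 2.19. Its unadjusted limma p was then no longer under 0.01. Cyld reversed to -0.077 with median-of-ratios scaling, to -0.1 with quantile normalisation, and over the libraries left out it ran from -0.12 to 0.14, as Zc3h12a did from -0.069 to 0.64. The causes were not tested.

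Over all genes tested, 247 passed this threshold (203 higher, 44 lower), 126 with a minimum mean of 5 FPKM (fewer genes tested), and 131 to 462 with 1 library left out. The split was 146 higher and 65 lower with median-of-ratios scaling, and 150 and 79 with quantile normalisation. It was 350 and 17 without erythroid and hepatocyte genes, where libraries were also scaled to equal summed FPKM. In these settings, in that order, the median of all genes moved from 0.092 to 0.0031, -0.024 and 0.27. None of the 9 genes passed the adjusted threshold in any setting, and of all genes 2 did by voom. A block for the replicate number gave 258 genes, Tnfaip3 and N4bp1 among them, and changed no call of the 9 genes. The labels do not say that numbers pair libraries, and same-numbered libraries deviated with a correlation of -0.16. The crossed pairing as a block, chosen after seeing the data, gave 363 genes and 1 at the adjusted threshold. Depth limited Zc3h12a most, at 145 to 271 reads.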
